A study of Homo sapiens with 6 samples.

Results

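The genes described here encode factors that build ribosomes, and they were chosen as a list of 54 gene symbols. Earlier results of these data were known when the list was chosen, so its counts are no independent evidence. For 48 of the 54, at least 1 probe set carried the symbol of that gene alone, out of 19775 genes measured in the same way. The 6 others were NOP56, DKC1, BOP1, GNL3, PPAN and EBNA1BP2, which were not analysed here. By the step they are known for, the 48 were 24 factors of the small subunit, 14 of 18 listed factors of the large subunit, 5 of 7 listed proteins of small nucleolar ribonucleoproteins (snoRNPs), and 5 nucleolar proteins with roles in several steps. Cells were K562, an established human line from chronic myeloid leukaemia, kept in RPMI medium with serum. One group of 3 arrays came from cells given calactin, a plant steroid of the cardenolide class, at a dose labelled 0.15 mM and harvested at 12 h. The other group of 3 arrays came from cells left without the agent for 12 h. The titles number the 3 samples of a group as biological replicates, without saying whether they came from separate cultures, so p-values measure the spread between these samples, which may be technical.

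A ribosome begins in the nucleolus, where RNA polymerase I makes 1 long precursor RNA that holds the RNAs of both subunits. The small subunit processome, a very large particle of U3 snoRNP and UTP proteins, assembles on the front of that precursor and cuts out the small subunit's RNA. Other factors fold the large subunit's RNA, and GTPases and export factors check both particles on their way to the cytoplasm. Box C/D and box H/ACA snoRNPs carry guide RNAs that direct the methylation and pseudouridylation of ribosomal RNA. Fast growing cells such as leukaemia lines make these factors in quantity, and MYC is known to drive many of their genes.

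Of the 48 genes, 31 were lower with calactin, 0 were higher and 17 were not called by limma at an adjusted p under 0.05 over all 19775 genes. At an unadjusted p under 0.05 limma called 33 lower and again 0 higher. The share of all genes at that unadjusted threshold was not counted, here or for the classes below. Over all genes, 16.5% were called lower and 4.93% higher at the adjusted threshold. All 48 genes lay above the median signal, and among the 9887 genes there 29.3% were called lower and 9.1% higher. The median difference of the 48 was -0.76 on the log2 scale, against -0.06 for all genes and -0.13 for the genes above the median signal. Called falls of at least 2-fold numbered 12 of 48 and such rises 0, against 4.4% and 0.531% of all genes. Among the 9887 genes above the median signal 736 had such falls and 100 such rises. In 33 of the 48 every calactin array lay below every untreated array, in 0 every calactin array lay above, and in 15 the groups overlapped. Over all genes the share with every calactin array below was 24.4%, and with every one above 10.3%. Of the 9887 genes above the median signal, 3878 had every calactin array below and 1473 every one above. Differences here are of log2(intensity + 16), calactin minus untreated, and folds are on that scale.

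By class, in the small subunit class 19 of 24 were lower (79.2%, median -0.87), in the large subunit class 8 of 14 (57.1%, median -0.76), and among the snoRNP proteins 0 of 5 (median -0.05), also 0 at an unadjusted p under 0.05 by limma. Of the 5 nucleolar proteins with several roles, 4 were lower (median -0.52). Beside these, 16.5% of all genes and 29.3% of the genes above the median signal were lower. The snoRNP genes were brighter than most, and of the 1161 genes at or above the dimmest of them 18.9% were lower. With 5 genes, 0 lower lies near that share. These counts describe the classes and were not tested against each other. On the deposited scale the spread within a class was wide, from -1.98 to 0.02 in the small subunit class and from -1.52 to 0.20 in the large subunit class, while the snoRNP proteins ran from -0.15 to 0.03.

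**Figure D1:**
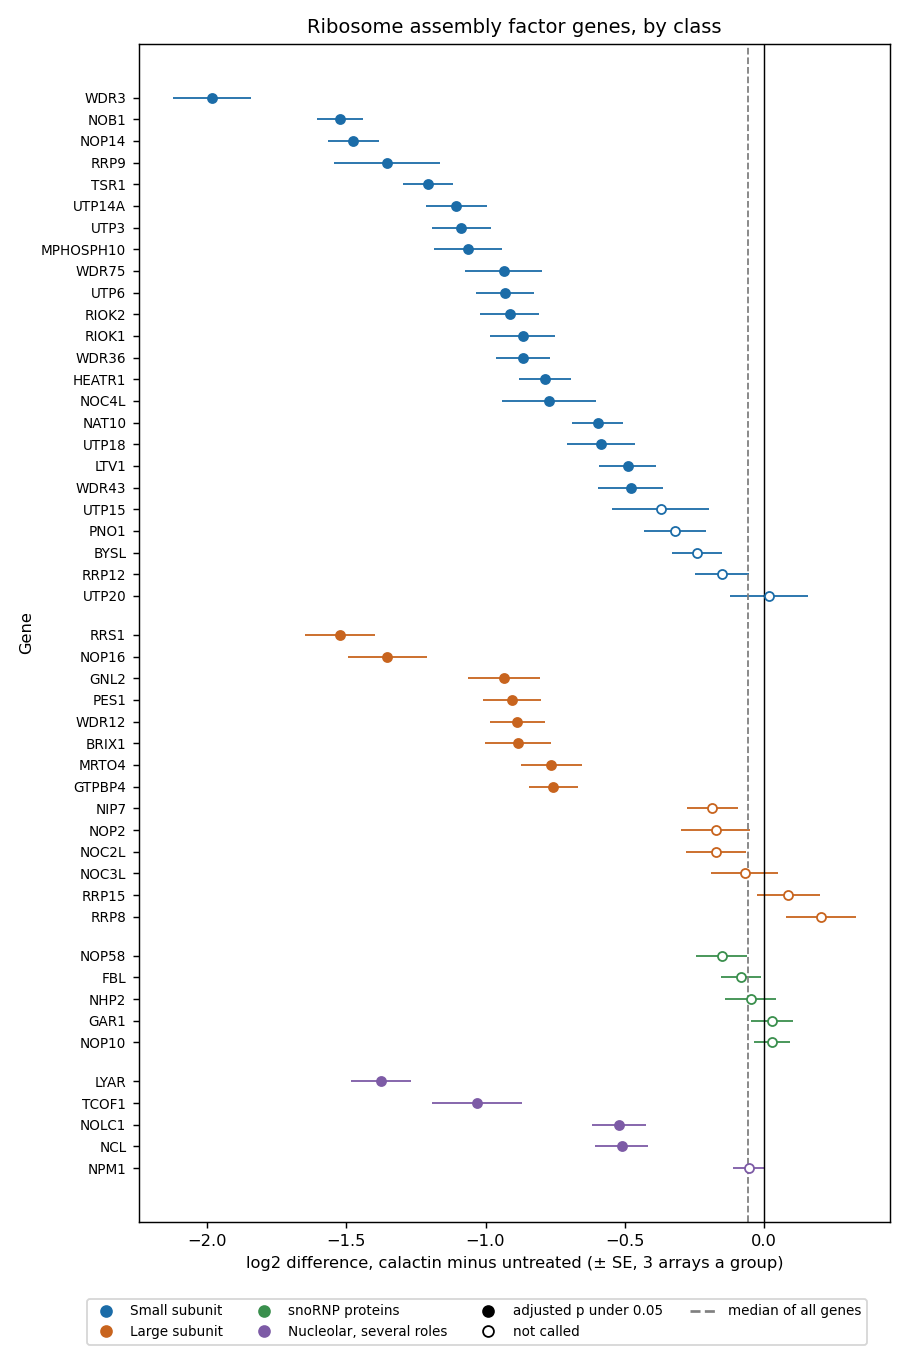
Log2 difference between calactin and untreated arrays (x axis, log2 units) for each of 48 ribosome assembly factor genes (y axis), with bars of 1 SE and 3 arrays a group; filled points passed an adjusted p of 0.05, open points did not, and the dashed line is the median of all genes at -0.06. The 19 filled points of the small subunit class run from -1.98 to -0.48, and all 5 snoRNP points are open. Of the points below 0 here, 16 are above 0 under poly-A spike scaling with the replicate block, among them the filled points of LTV1, WDR43, NCL and NOLC1.

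The overall signal and the controls moved too. The median intensity of an array was 31.1 to 32.0 with calactin and 33.0 to 34.3 in untreated cells, so every calactin array lay below every untreated one. Poly-A spikes, bacterial RNAs added before labelling, had mean signals of 887, 1135 and 83.4 in calactin replicates 1 to 3 and 1297, 1896 and 112 in the untreated ones, lower with calactin in each pair of replicate numbers. Scaling to those spikes, with the replicate number as a block, moved the median of all genes from -0.06 to 0.47, and that of the 48 genes to -0.23. This scaling shifts all genes of an array alike, so by construction the 48 stood at -0.70 relative to the median of all genes before and after it, with 41 of the 48 below that median. With this scaling and block 20 of the 48 were called lower and 12 higher, where 5.15% of all genes were called lower and 47.5% higher. Markers of erythroid cells, the lineage of K562, were present, with HBE1 and HBZ among the brightest genes. Their summed signal over 9 of 10 listed genes was 38999 to 48695 with calactin and 45258 to 51285 untreated, with 4 called lower and 1 higher. GATA1, LMO2, NFE2 and TFRC were the lower ones and TAL1 the higher. Over 11 of 12 listed markers of other cells the sums were 11852 to 13031 and 15870 to 18714, with 3 lower (CD3D, COL1A2 and KRT18) and 0 higher. The B cell marker MS4A1, the monocyte marker CD14 and the endothelial marker VWF were at or below 21.95 units in every array. Other markers of that list were bright. By percentile of mean signal KRT18 stood at 98.4, EPCAM at 94.9, KRT8 at 94.7, CD3D at 92.2 and COL1A1 at 81.7. PECAM1, also endothelial, stood at 70.2, COL1A2 at 60.3 and CD3E at 44.2. The list taken whole therefore does not show other cells to be absent. A control probe set for the middle of 28S ribosomal RNA was 13.7-fold higher with calactin. The part of these shifts in the results was not tested, and in bulk RNA fewer cells of a type and less RNA per cell cannot be told apart.

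Within the small subunit class the fall was deepest in WDR3, NOB1 and NOP14. NOB1 is the endonuclease that makes the final cut in the small subunit's RNA in the cytoplasm. Its signal was 605, 651 and 699 with calactin and 1897, 1917 and 1879 in untreated cells, and the groups did not overlap. The fall was 2.87-fold, or -1.52 ± 0.08 on the log2 scale (SE, n = 3 each, adjusted p = 3.9e-05). NOP14, a scaffold of the processome that binds NOC4L, read 356, 379 and 376 with calactin and 1063, 984 and 1129 in untreated cells. The groups were far apart and did not overlap, a 2.78-fold fall (-1.47 ± 0.09, adjusted p = 6.22e-05). WDR3 belongs to the UTP-B complex, one of the first to bind the precursor. It read 248, 332 and 349.8 with calactin and 1228, 1162 and 1396 in untreated cells, a fall of 3.95-fold (-1.98 ± 0.14, adjusted p = 7.82e-05). WDR3 has a second, dim probe set marked as unshared sequence, with a mean signal of 11.4, where the difference was -0.43 and not called. Taking that probe set for WDR3 ended the call (adjusted p = 0.461), and the mean of both gave -1.204.

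TSR1, UTP3 and UTP14A had the next smallest p-values. TSR1, a GTPase-like factor on late particles, read 632, 592 and 632 with calactin and 1524, 1310.5 and 1519.8 in untreated cells and fell by 1.21 ± 0.09 (adjusted p = 9.92e-05). Of its 4 probe sets 3 were called lower, at -1.17 to -1.24, and 1 was not. UTP3, which sits in the heart of the processome, read 601, 711 and 729 with calactin and 1372, 1404 and 1609.6 in untreated cells. The lowest untreated array was well above the highest calactin array, a difference of -1.09 ± 0.11 (adjusted p = 0.000223). UTP14A, an activator of the helicase that dismantles the processome, read 401, 459 and 503 with calactin and 933, 985 and 1059 in untreated cells and fell by 1.10 ± 0.11 (adjusted p = 0.000228). In these 3 genes the groups did not overlap either.

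By complex, UTP-B had all 6 genes lower with the brightest probe set of each. Over all genes 16.5% were lower, and above the median signal 29.3%. WDR3, WDR36, UTP6 and UTP18 were members of the list, and PWP2 and TBL3 belong to the same complex by textbook knowledge. All 6 were called lower, with differences from -1.98 to -0.59 and a median of -1.18. WDR36 fell by 0.87 ± 0.10, UTP6 by 0.93 ± 0.10 and UTP18 by 0.59 ± 0.12. The mean of its probe sets put UTP6 at -0.52, still called. Averaging the 2 probe sets of UTP18 ended its call (-0.38, adjusted p = 0.12). TBL3 was at 0.07 in its brightest probe set of unshared sequence and not called (adjusted p = 0.889). WDR3 also lost its call with its unshared probe set (adjusted p = 0.461). UTP-A, which binds the very front of the precursor, had 4 of 6 genes lower. HEATR1 fell by 0.79 ± 0.09, WDR75 by 0.93 ± 0.14, WDR43 by 0.48 ± 0.12 and UTP4 by 0.62 ± 0.09. UTP15 stood at -0.37 ± 0.17 and NOL11 at -0.18 ± 0.07 without a call. Of 5 HEATR1 probe sets 2 were called lower and 3 were not, and their mean gave -0.58, still called. WDR43 was not called without calactin replicate 2 (-0.46, adjusted p = 0.0668), calactin replicate 3 (-0.44, 0.0752) or untreated replicate 1 (-0.44, 0.0618). The grouping into complexes was made after the values were seen.

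MPHOSPH10, a processome protein that acts beside the U3 snoRNA, fell by 1.06 ± 0.12. RRP9, a U3-specific protein, fell by 1.35 ± 0.19, with signals of 89.0, 87.5 and 85.3 with calactin and 328, 189 and 244 in untreated cells. It was the dimmest of the 48 genes, and its untreated arrays were further apart than its calactin arrays. NOC4L, the partner of NOP14, fell by 0.77 ± 0.17, a call lost without calactin replicate 2 (-0.69, adjusted p = 0.0514) or 3 (-0.72, 0.0515). NAT10, which acetylates cytidines of the small subunit's RNA, fell by 0.60 ± 0.09. Of 8 factors of the late, cytoplasmic or exporting small particle 5 were lower, where 16.5% of all genes and 29.3% above the median signal were. The lower ones were NOB1 and TSR1, the atypical kinases RIOK2 (-0.91 ± 0.11) and RIOK1 (-0.87 ± 0.12), and LTV1 (-0.49 ± 0.10).

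The 3 late factors without a call were PNO1, the RNA-binding partner of NOB1, BYSL and RRP12. PNO1 stood at -0.32 ± 0.11 (adjusted p = 0.0744) and BYSL at -0.24 ± 0.09 (adjusted p = 0.103), and in both every calactin array was below every untreated one. With the replicate number as a block both were called lower (adjusted p = 0.0345 and 0.0442), as was UTP15 (0.0236). RRP12 stood at -0.15 ± 0.10 and had the other sign under quantile normalization (0.02), poly-A spike scaling with the replicate block (0.38), the mean of its probe sets (0.04) and unshared probe sets (0.25). UTP20, a very long repeat protein that bridges parts of the processome, had the largest p of the class. Its signals were 277, 250.5 and 268 with calactin and 285, 214 and 293 in untreated cells, with untreated replicate 2 below every calactin array. The 95% interval of its difference ran from -0.30 to 0.34 (adjusted p = 0.961). The sign of UTP20 turned without calactin replicate 1 (-0.01) or untreated replicate 2 (-0.12).

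**Figure D2:**
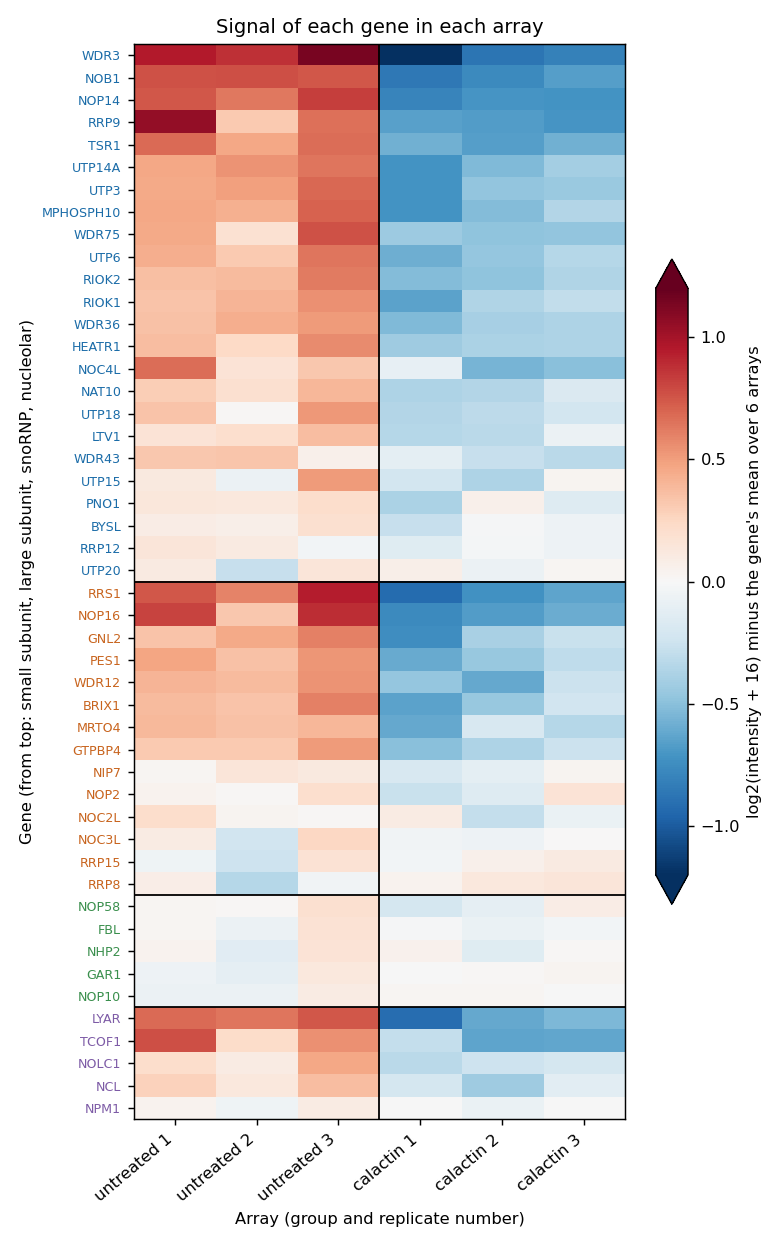
Signal of each of 48 genes (rows, grouped from the top as small subunit, large subunit, snoRNP and nucleolar genes) in each of 6 arrays (columns), as log2(intensity + 16) minus the gene's mean over the 6 arrays; red is above that mean and blue below. Most small and large subunit rows are red in all 3 untreated arrays and blue in all 3 calactin arrays, on the deposited scale, and the 5 snoRNP rows are pale throughout.

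Large subunit factors split into 8 that fell and 6 that were not called. RRS1, which with RPF2 brings the 5S RNA particle into the nascent subunit, read 239, 275 and 295 with calactin and 794, 713 and 907 in untreated cells. All 3 untreated arrays were far above all 3 calactin arrays, a fall of 2.87-fold (-1.52 ± 0.13, adjusted p = 0.000122). RPF2, from the wider list of factors, fell by 0.71 ± 0.10. NOP16 read 779, 833 and 879 with calactin and 2359, 1677 and 2481 in untreated cells, a difference of -1.35 ± 0.14 (adjusted p = 0.000311). Its untreated replicate 2 was the lowest of the untreated arrays and still above every calactin array. Of 4 NOP16 probe sets the 2 bright ones were called lower and the 2 dim ones, at mean signals of 40.5 and 3.37, were not, so that the mean of the 4 gave -0.74.

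PES1, WDR12 and BOP1 form the PeBoW complex, which is needed to process the large subunit's RNA. PES1 read 466, 518 and 575 with calactin and 998, 916 and 1041 in untreated cells and fell by 0.91 ± 0.11 (adjusted p = 0.000472). WDR12 read 1547, 1398 and 1795 with calactin and 2847, 2798 and 3116 in untreated cells and fell by 0.89 ± 0.10 (adjusted p = 0.000416). Neither gene's groups overlapped. The mean of its probe sets put PES1 at -0.44, still called (adjusted p = 0.0193). The GTPases GTPBP4 and GNL2 of the nascent large subunit moved in the same direction, and the GTPase GNL3 was not analysed. Among GTPases of the wider list, GNL3L (0.19 ± 0.23) and LSG1 (-0.22 ± 0.11) were not called, and EFL1 (-1.04 ± 0.12) was lower. GTPBP4 read 2198, 2408 and 2616 with calactin and 3886, 3887 and 4461 in untreated cells and fell by 0.76 ± 0.09 (adjusted p = 0.000488), with 3 of 3 probe sets called lower. GNL2 fell by 0.93 ± 0.13. BRIX1, which helps fold the early large particle, read 913, 1044 and 1217 with calactin and 1866, 1819 and 2186 in untreated cells and fell by 0.88 ± 0.12 (adjusted p = 0.00099). MRTO4, a placeholder for the stalk protein of the ribosome, fell by 0.76 ± 0.11, a call that ended when its 2 probe sets were averaged (-0.64, adjusted p = 0.157) or the unshared one was used (-0.51, 0.541).

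The 6 large subunit factors without a call were NIP7, NOP2, NOC2L, NOC3L, RRP15 and RRP8. NOP2 and RRP8 methylate the large subunit's RNA, and they stood at -0.17 ± 0.12 and 0.20 ± 0.12. NIP7 stood at -0.19 ± 0.09, NOC2L at -0.17 ± 0.11 and RRP15 at 0.09 ± 0.11. NOC3L had the largest p, with signals of 1127, 1110.1 and 1162 with calactin and 1241, 986 and 1379 in untreated cells. Its untreated replicate 2 was the lowest of all 6 arrays and its untreated replicate 3 the highest, and its interval was -0.34 to 0.20 (adjusted p = 0.774). All 6 had overlapping groups. Over the 6 the 95% intervals ran from -0.46 to 0.49, so none reached a 2-fold fall or rise on the deposited scale. The brightest probe set did not tell the whole story in 2 of them. NIP7 and RRP15 each had a second probe set that was called lower, at -0.36 and -0.54, when every probe set was tested on its own.

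The snoRNP proteins differed little between the groups. FBL, or fibrillarin, is the methyltransferase of box C/D snoRNPs. It read 8398, 7993 and 8265 with calactin and 8572, 8052 and 9557 in untreated cells, a difference of -0.08 ± 0.07 with an interval of -0.24 to 0.08 (adjusted p = 0.507). NOP58, another core protein of box C/D snoRNPs, read 2147, 2306 and 2634 with calactin and 2519.9, 2514 and 2835 in untreated cells, a difference of -0.15 ± 0.09 with an interval of -0.36 to 0.06 (adjusted p = 0.325). In both, untreated replicate 3 was the highest array and the groups overlapped. NHP2, GAR1 and NOP10 belong to box H/ACA snoRNPs and to telomerase. NHP2 read 5026, 4372 and 4893 with calactin and 4983, 4390.4 and 5433 in untreated cells, a difference of -0.05 ± 0.09 (interval -0.26 to 0.16, adjusted p = 0.8). GAR1 read 3434, 3489.8 and 3545 with calactin and 3318, 3202 and 3774 in untreated cells, a difference of 0.03 ± 0.08 (interval -0.14 to 0.20, adjusted p = 0.867). NOP10 read 5459.6, 5446 and 5349 with calactin and 5109, 5115 and 5725 in untreated cells, a difference of 0.03 ± 0.06 (interval -0.12 to 0.18, adjusted p = 0.831). In each of these 3 the groups overlapped, and untreated replicate 3 was the highest array.

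Over the 5 snoRNP proteins the intervals ran from -0.36 to 0.20, so a fall as large as that of the median small subunit factor lay outside each of them on the deposited scale. Under poly-A spike scaling fitted together with the replicate block, GAR1 (0.56), NOP10 (0.56), NHP2 (0.49) and NOP58 (0.38) were called higher and FBL (0.45, adjusted p = 0.0503) was not, with a class median of 0.49 beside 0.47 for all genes there. These 5 genes were bright, from the 94.1th to the 99.2th percentile of mean signal. Of the 1161 genes at or above the dimmest of them, 18.9% were called lower, with a median difference of -0.04. Called falls of at least 2-fold were found in 8 of those 1161. The other ribosome assembly factor genes of the main list in that range of signal differed in call. NCL, at the 98.1th percentile, GTPBP4 (95.7) and NOLC1 (95.6) were lower, and NPM1 (99.7) was not called. Averaging the probe sets of NCL gave -0.27 without a call (adjusted p = 0.237). Any part of brightness in the snoRNP values was not tested.

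Of the nucleolar proteins with several roles, LYAR and TCOF1 fell most. LYAR, a zinc finger protein of the nucleolus that promotes the processing of the precursor, read 637, 789 and 831 with calactin and 1947, 1900.2 and 2046 in untreated cells. All 3 untreated arrays were far above all 3 calactin arrays, a fall of 2.59-fold (-1.37 ± 0.11, adjusted p = 0.000108), and both of its probe sets were called lower. TCOF1, or treacle, which couples precursor synthesis to modification, read 324, 252 and 253 with calactin and 694, 469 and 593 in untreated cells and fell by 1.03 ± 0.16 (adjusted p = 0.00212), with 3 of 3 probe sets lower. NOLC1, a chaperone of snoRNPs in the nucleolus and Cajal bodies, read 2478, 2621 and 2686 with calactin and 3609, 3329 and 4300.1 in untreated cells and fell by 0.52 ± 0.10 (adjusted p = 0.00498). NCL, or nucleolin, read 4524, 3905 and 4802 with calactin and 6346, 5721 and 6796 in untreated cells and fell by 0.51 ± 0.09 (adjusted p = 0.00455). In all 4 the groups did not overlap, though NCL and NOLC1 were at 0.02 and 0.01 under poly-A spike scaling with the replicate block. The call of NCL rested on its bright probe set; the other, at a mean signal of 28.1, gave -0.03.

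NPM1, or nucleophosmin, a chaperone that shuttles between nucleolus and cytoplasm, was not called. It read 11986, 11399.9 and 11991 with calactin and 12388, 11564 and 12825 in untreated cells, a difference of -0.05 ± 0.06 (interval -0.18 to 0.07, adjusted p = 0.605). The calactin arrays lay within the range of the untreated ones or just below it, and none of its 3 probe sets was called. All 3 NPM1 probe sets are marked as matching several transcripts, and NPM1 has many processed copies in the genome, so its value is uncertain. Its signal was at the 99.7th percentile.

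Promoters were searched for the E-box CACGTG, which MYC binds with its partner MAX, and for other motifs. Of the 54 listed genes 47 had a promoter in the RefSeq table used here (GRCh38.p14), from 250 bases before the start of transcription to 50 after it. Several promoters were listed for 6 of them, and a gene counted as holding a motif when any of its promoters did. An E-box, which reads the same on both strands, was present in 21 of the 47 (44.7%), against 10.9% of the 15384 genes tested on the arrays that had a promoter and 7.26% of all 35116 promoters. By position, 15 of the 47 (31.9%) held an E-box within the 50 bases after the start, against 1.31% of the genes tested. Before the start the shares were 14.9% and 9.69%. Other motifs, searched on both strands, were CCGGAAG of ETS factors in 42.6% of the 47 against 16.6%, GGGCGG of SP and KLF factors in 76.6% against 64.6%, CCAAT of NF-Y in 40.4% against 41.7%, and TATAAA in 4.26% against 11.5%. These are matches of letters, not measured sites.

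The windows below hold the E-box nearest to the start in 5 genes that were lower and 5 that were not called and show that both kinds carry it. Each is 30 bases, 5′ to 3′ on the strand of the gene, with the E-box in capitals, from RefSeq on GRCh38.p14.
NOP14, chr4:2963374-2963403, - strand: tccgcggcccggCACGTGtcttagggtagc
PES1, chr22:30591880-30591909, - strand: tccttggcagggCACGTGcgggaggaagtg
GNL2, chr1:37595917-37595946, - strand: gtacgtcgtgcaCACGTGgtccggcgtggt
LYAR, chr4:4290068-4290097, - strand: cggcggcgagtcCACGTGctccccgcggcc
RRP9, chr3:51941892-51941921, - strand: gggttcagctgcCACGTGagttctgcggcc
FBL, chr19:39846356-39846385, - strand: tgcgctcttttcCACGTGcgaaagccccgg
GAR1, chr4:109815781-109815810, + strand: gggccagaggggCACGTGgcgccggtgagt
NOP10, chr15:34343130-34343159, - strand: gaaattgacgaaCACGTGacgcggtcgggc
NOP2, chr12:6568242-6568271, - strand: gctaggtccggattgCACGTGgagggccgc
UTP20, chr12:101280083-101280112, + strand: cttttttccgtcCACGTGacccactcaggc
Counted from the first transcribed base as 1, the E-box began at base 16 in NOP14, 14 in PES1, 4 in GNL2, 7 in FBL, 32 in GAR1 and 36 in NOP2. It lay across the start in RRP9 and before it in LYAR, NOP10 and UTP20. GAR1 and LYAR each have another listed promoter, with another start, that holds no E-box.

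The E-box was found both in genes that fell and in genes that were not called. Among the tested genes with a promoter, 11 of 19 with an E-box and 16 of 23 without one were lower. Their median differences were -0.49 and -0.87. For an E-box after the start the counts were 7 lower of 13. By call, 40.7% of the 27 lower genes and 53.3% of the 15 not called held an E-box. These counts were not tested against each other, and any part of MYC or the E-box in the differences was not tested. MYC itself read 2005, 3115 and 2509.9 with calactin and 4288, 3414 and 4662 in untreated cells, lower in every calactin array (-0.70 ± 0.16, adjusted p = 0.0152). That call was lost without calactin replicate 3 (-0.71, adjusted p = 0.0566), untreated replicate 1 (-0.67, 0.0632) or untreated replicate 3 (-0.61, 0.0788). It was also lost with replicates 1 and 2 alone (-0.61, adjusted p = 0.193), with arrays scaled to the hybridisation spikes (-0.61, 0.0656; 0.289 when blocked by replicate number), and with poly-A spike scaling and the block (-0.17, 0.36).

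**Figure D3:**
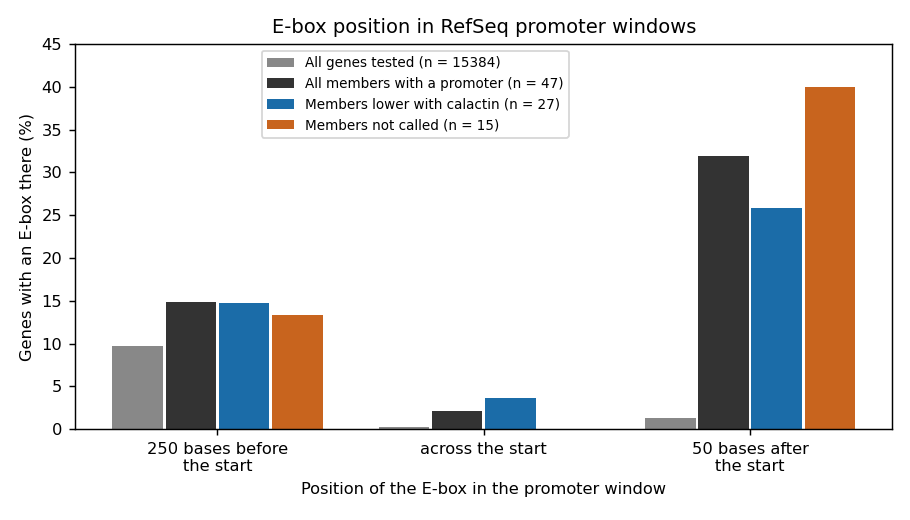
Share of genes (y axis, %) whose RefSeq promoter window holds an E-box in the 250 bases before the start, across the start or in the 50 bases after it (x axis), for all 15384 genes tested on the arrays that had a promoter, the 47 listed genes with a promoter, the 27 of them that were lower with calactin on the deposited scale and the 15 that were not called. The windows differ in length; after the start the bars stand at 1.31%, 31.9%, 25.9% and 40%.

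A wider list of 91 other ribosome assembly factors, was measured for 88 genes. Of the 88, 61 were lower, 1 was higher and 26 were not called, with a median of -0.58. Over all genes 16.5% were lower and 4.93% higher, and among genes above the median signal 29.3% and 9.1%. The lists and the 48 genes were chosen with earlier results of these arrays known, so these counts are no independent evidence. Other small subunit factors were lower in 21 of 30, among them PWP2 at -1.60 ± 0.12, TBL3 at -1.43 ± 0.12 and the methyltransferase DIMT1 at -1.17 ± 0.11. With the mean of its probe sets PWP2 was at -0.50 and still called (adjusted p = 0.0143), and TBL3 at -0.68. The DIMT1 value was -0.45 and not called with the unshared probe set. Other large subunit factors were lower in 26 of 34. They included NMD3, the export adaptor, at -0.99 ± 0.07, MAK16 at -1.05 ± 0.09 and NLE1 at -1.58 ± 0.14, the last not called with the unshared probe set (-0.54, adjusted p = 0.0513).

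Of 10 factors that assemble snoRNPs, 5 were lower and 0 higher, beside 0 of the 5 snoRNP proteins lower. Over all genes 16.5% were lower and 4.93% higher, and above the median signal 29.3% and 9.1%. Among genes as bright as the snoRNP proteins 18.9% were lower. The assembly factors were dimmer, with a median signal percentile of 82.4 against 97.8. The difference between these counts was not tested. NOPCHAP1, a chaperone of NOP58, fell by 1.88 ± 0.15, from a mean of 511 to 126 units. NUFIP1, a scaffold of box C/D assembly, fell by 1.28 ± 0.12, and by the mean of its probe sets it was at -0.80. RUVBL1, an ATPase of the same machinery, fell by 0.84 ± 0.10.

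The exosome trims the ends of precursor RNAs. Of 14 measured genes of the exosome and its partners 9 were lower and 1 was higher, where 16.5% of all genes were lower and 4.93% higher. EXOSC7 fell by 1.34 ± 0.12 and the exonuclease XRN2 by 0.82 ± 0.13. EXOSC7 stood at -0.62 in its probe set of unshared sequence (adjusted p = 0.00604). EXOSC6, a ring subunit of the same complex as EXOSC7, rose by 1.16 ± 0.11 (adjusted p = 0.000171), with signals of 1172, 1184 and 1197 with calactin and 447, 554 and 566 in untreated cells. Every calactin array of EXOSC6 was above every untreated one. It was the only gene of the wider list called higher with the brightest probe set on the deposited scale. With the mean of probe sets, unshared probe sets first or quantile normalization 2 were higher, and with poly-A spike scaling and the replicate block together 18.

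**Figure D4:**
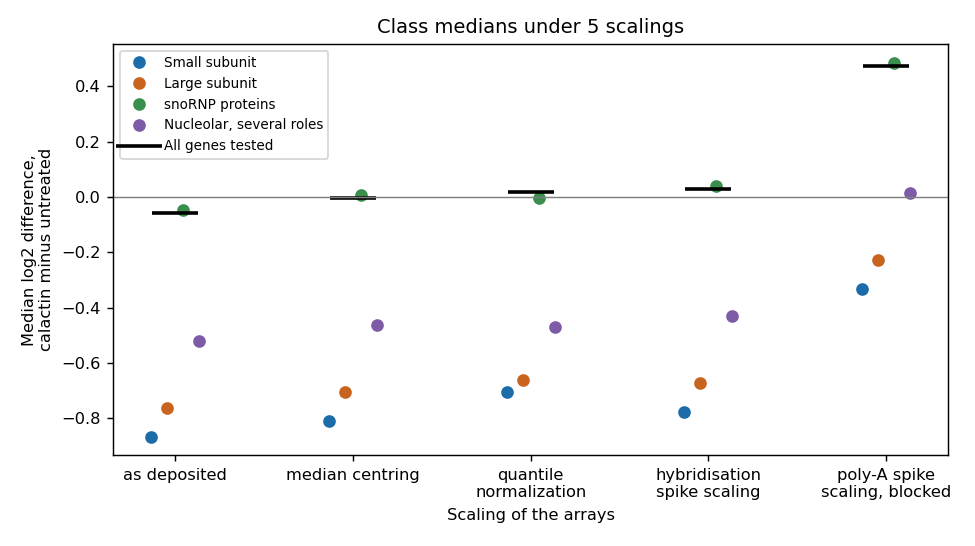
Median log2 difference between calactin and untreated arrays (y axis) of the small subunit, large subunit, snoRNP and nucleolar classes (points) and of all genes tested (bars) under 5 scalings of the arrays (x axis). The scalings other than quantile normalization shift all genes alike, so distances to the bar cannot differ among them (0.01 for the snoRNP and -0.81 for the small subunit median); with quantile normalization they are -0.02 and -0.73. Poly-A spike scaling, fitted with the replicate block, brings the nucleolar median to 0.01.

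The 48 genes had 91 probe sets of their own symbol, 26 genes having several. Tested one by one over all probe sets, 46 of the 91 were lower and 0 higher, where 10.3% of all probe sets were lower and 3.68% higher. No gene had probe sets called in opposite directions, and 6 genes with several had none called. The second RIOK2 probe set, at -1.71, fell further than the brighter one.

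Arrays within a group did not stand equally. Of the 31 genes that fell, calactin replicate 1 was the lowest of the 3 calactin arrays in 23, and replicate 3 the highest in 24. In the untreated group replicate 2 was the lowest in 21 and replicate 3 the highest in 25. The median deviation of the 48 genes from their 6-array means was -0.38, -0.37 and -0.25 in calactin replicates 1 to 3 and 0.34, 0.21 and 0.51 in untreated replicates 1 to 3. All genes deviated by -0.05, -0.04 and -0.04 and by 0.03, 0.02 and 0.07. With replicates 1 and 2 alone 26 genes were called lower, and of those named above RRP9, TCOF1, UTP18, NOC4L and WDR43 were not.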

How the data were processed

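RNA of 6 K562 samples, 3 per group, was hybridised to 1-colour Affymetrix arrays after biotin labelling, per the labels' protocols. As deposited, each array has 1 linear intensity for every probe set. How the authors summarised, background-corrected and scaled these intensities is not given in the sources used here. Of 54675 probe sets 62 were controls, 41091 carried 1 gene symbol in the platform annotation, 1801 several and 11721 none. Probe sets with several symbols named no gene. Each gene was represented by its brightest probe set, by the mean of log2(intensity + 16) over the 6 arrays, and no further normalization was applied.

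Calactin and untreated arrays were compared over all 19775 genes with limma 3.58.1 under R 4.3.3 (moderated by eBayes, trend on), on both sides. Benjamini-Hochberg adjustment and a threshold of 0.05 were used. The fit was also run on simulated data with independent noise and equal numbers of rises and falls. These arrays differ from that in both respects, so the simulation does not vouch for the calls here. There were 4 residual degrees of freedom per gene, so precision is limited by how few arrays there are. Of the chosen probe sets, 20 of 48 have identifiers that mark sequence shared by several transcripts, of the same or another gene. Figures were drawn with matplotlib 3.10.9.

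The members, classes and lists were chosen with earlier results of these data known. All listed genes are named, and values in every array are given for the 6 with the smallest p in the small and large subunit classes, for the largest p of each class and for all snoRNP and nucleolar genes. Array values of RRP9 were added after they were seen, and so was the grouping into complexes. Up to 3 genes of each wider list were named by smallest p, others where a complex or the GTPases called for them.

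Replicate numbers come from the titles. Deviations from the group means of arrays with the same number correlated at 0.544, 0.409 and 0.345 over 9887 genes, which was read as a pairing by number; the block is an alternative. Spike scalings shift each array's log2 values by its mean spike value.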

Additional observations from a re-analysis of the deposited data

Results flagged for a closer look

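A control probe set outside the gene comparison stood apart between the groups. The array carries control probe sets for 28S ribosomal RNA, the RNA of the large subunit, and the middle one read 10036, 13172 and 7119 with calactin and 616, 1051 and 529 in untreated cells. That is 13.7-fold higher with calactin on the log2(intensity + 16) scale, and every calactin array lay above every untreated one. The 5′ control of the same RNA read 980.4, 1489.7 and 589 against 420, 468 and 355, or 2.26-fold higher, while the 3′ control was at or below 26.01 units in every array. The 3 controls of 18S ribosomal RNA were at or below 88.25 units in every array. Control probe sets were left out of the fit over genes, and no test was run on them.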

How the results depend on the processing

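The number of arrays limits precision, and signal over background limits dim probe sets. Of the 31 calls, 29 held without any 1 array (not NOC4L and WDR43) and 14 in all 21 alternatives. Without 1 array the 48 genes had 29 to 31 lower with medians of -0.78 to -0.67, and all genes had 2390 to 3030 lower and 644 to 1015 higher. With the replicate number as a block 34 of the 48 were lower, BYSL, PNO1 and UTP15 being added, and no other call among the 48 changed. The cause of the changes below was not tested.

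Under quantile normalization 1661 genes were higher, 2 of them among the other assembly factors, and the median of the 48 was -0.61. The lower share of all calls was 77% as deposited, 59.1% after quantile normalization, 69.3% after median centring, 73.4% with hybridisation spikes and 77.6% with these and the replicate block, and 9.78% with poly-A spikes and the block. Hybridisation spike scaling gave 1399 genes lower and 508 higher, 28 other factors lower and 2 nucleolar genes lower. The same with the replicate block gave 994 lower and 287 higher, with 17 of the 48 lower (11 small subunit, 4 large subunit and 2 nucleolar) and 17 other factors lower. Poly-A spike scaling with the replicate block gave 1018 lower and 9390 higher. There 20 of the 48 were lower (12 small subunit, 2 nucleolar) and 12 higher, with a median of -0.23, and 20 other factors were lower and 18 higher. Replicates 1 and 2 alone gave 1403 lower and 332 higher, and 34 other factors lower. The median of the 48 was -0.55 with the mean of each gene's probe sets and -0.59 with unshared probe sets first, each with 2 other factors higher.

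Signs turned as follows. With poly-A spikes and the replicate block the differences were 0.29 for BYSL, 0.45 for FBL, 0.043 for LTV1, 0.022 for NCL, 0.49 for NHP2, 0.35 for NIP7, 0.36 for NOC2L, 0.46 for NOC3L, 0.014 for NOLC1, 0.36 for NOP2, 0.38 for NOP58, 0.48 for NPM1, 0.21 for PNO1, 0.38 for RRP12, 0.16 for UTP15 and 0.055 for WDR43. With hybridisation spikes, with and without the replicate block, they were 0.0063 for FBL, 0.041 for NHP2, 0.019 for NOC3L and 0.034 for NPM1. Median centring gave 0.0080 for NHP2 and 0.0012 for NPM1, and quantile normalization 0.078 for NOC3L and 0.021 for RRP12. The mean of probe sets gave 0.037 for RRP12 and -0.23 for RRP15, and unshared probe sets first 0.25 for RRP12, -0.051 for RRP8 and 0.070 for TBL3. Replicates 1 and 2 alone gave 0.0030 for NHP2 and 0.016 for NOC3L. Leaving out 1 array, the differences ran from -0.020 (without untreated replicate 2) to 0.10 (without untreated replicate 3) for GAR1, from -0.13 (without untreated replicate 2) to 0.024 (without untreated replicate 3) for NHP2, from -0.20 (without untreated replicate 2) to 0.034 (without untreated replicate 3) for NOC3L, from -0.018 (without untreated replicate 2) to 0.20 (without untreated replicate 3) for RRP15 and from -0.12 (without untreated replicate 2) to 0.095 (without untreated replicate 3) for UTP20.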
